A study of Rattus norvegicus with 17 samples.

Results

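The Slc25 genes encode the mitochondrial carriers, and 33 of them could be followed in liver and adipose tissue of 2 rat strains. Members were the genes whose symbol in the array's annotation starts with Slc25a, 33 genes of 13278 with a symbol, read by 35 of 22226 probes. Slc25a30 alone had several probes, of which the one with the highest mean stood for the gene. RefSeq lists 49 protein-coding rat genes of this name, and 16 of them, among them the aspartate-glutamate carriers Slc25a12 and Slc25a13, had no probe under that symbol and were not analysed here.

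RNA came from male rats, 7 months old, of the inbred Goto-Kakizaki (GK) strain, which develops diabetes spontaneously, and of the inbred Brown-Norway (BN) strain, which is normoglycaemic. Both strains came from Oxford colonies and ate standard chow, and no treatment was described in the sources used here. Single-colour Illumina RatRef-12 arrays measured 3 GK livers, 5 BN livers, 4 GK adipose samples and 5 BN adipose samples, 1 rat an array. The adipose depot was not given in the sources used here. BN rats are no parental or co-isogenic control of GK rats, so a strain difference includes every locus at which the strains differ.

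Mitochondrial carriers are small proteins of the inner mitochondrial membrane that pass metabolites, nucleotides, phosphate and cofactors between matrix and cytosol, mostly by exchange of one substrate for another. In liver they serve the urea cycle, gluconeogenesis and fatty acid oxidation. In adipose tissue they export citrate for fatty acid synthesis and exchange ADP for ATP. A few members lie elsewhere, such as Slc25a17 in the peroxisome and Slc25a46 in the outer mitochondrial membrane.

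The promoters of 5 members on which the results turn are printed because 3 of these genes differed most towards liver, 1 towards adipose tissue among genes measured in both tissues, and 1 had the smallest adjusted p between strains. RefSeq holds a promoter window, the 300 bases that run from 250 before to 50 after the start of the gene, for 28 of the 33 members (build GRCr8, an assembly of the BN strain). The windows lie at chr6:133531491-133531790 (Slc25a47, plus strand), chr16:76336620-76336919 (Slc25a15, plus strand), chr3:36116532-36116831 (Slc25a25, minus strand), chr16:52805271-52805570 (Slc25a4, plus strand) and chr8:128712930-128713229 (Slc25a38, plus strand). Capitals mark matches on either strand to the GC box GGGCGG, the CCAAT box CCAAT, the TATA box TATAAA and the cAMP response element TGACGTCA.
Slc25a47: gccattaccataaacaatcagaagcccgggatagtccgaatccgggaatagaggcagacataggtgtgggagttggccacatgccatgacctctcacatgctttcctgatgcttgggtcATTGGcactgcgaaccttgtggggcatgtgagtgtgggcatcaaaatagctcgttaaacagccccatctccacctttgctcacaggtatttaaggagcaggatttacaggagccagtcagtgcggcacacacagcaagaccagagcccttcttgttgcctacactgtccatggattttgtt
Slc25a15: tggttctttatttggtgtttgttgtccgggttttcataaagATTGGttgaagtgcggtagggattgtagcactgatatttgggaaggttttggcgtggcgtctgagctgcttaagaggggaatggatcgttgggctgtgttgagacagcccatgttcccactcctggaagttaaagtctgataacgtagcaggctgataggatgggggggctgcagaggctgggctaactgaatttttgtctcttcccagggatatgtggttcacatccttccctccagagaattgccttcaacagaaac
Slc25a25: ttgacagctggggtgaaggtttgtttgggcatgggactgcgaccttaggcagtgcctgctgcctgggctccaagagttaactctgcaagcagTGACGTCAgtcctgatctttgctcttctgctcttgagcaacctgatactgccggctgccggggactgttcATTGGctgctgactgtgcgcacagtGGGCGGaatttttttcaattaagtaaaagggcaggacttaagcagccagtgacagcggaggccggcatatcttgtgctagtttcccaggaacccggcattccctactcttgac
Slc25a4: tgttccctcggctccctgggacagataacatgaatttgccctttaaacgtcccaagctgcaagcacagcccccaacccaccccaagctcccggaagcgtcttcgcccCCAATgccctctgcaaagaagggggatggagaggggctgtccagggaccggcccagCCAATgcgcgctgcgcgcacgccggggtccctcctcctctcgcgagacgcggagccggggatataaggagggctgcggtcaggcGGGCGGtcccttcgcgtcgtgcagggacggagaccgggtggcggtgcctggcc
Slc25a38: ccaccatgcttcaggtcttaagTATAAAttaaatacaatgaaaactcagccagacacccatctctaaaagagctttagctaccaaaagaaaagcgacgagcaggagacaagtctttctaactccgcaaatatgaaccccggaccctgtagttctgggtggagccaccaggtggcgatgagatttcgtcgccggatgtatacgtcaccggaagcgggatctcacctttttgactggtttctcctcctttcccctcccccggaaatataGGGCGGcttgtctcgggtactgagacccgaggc

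The GC box was found in 22 of 28 member promoters (78.6%), against 33.1% of 33469 promoters of the same length from genes of all kinds. Among the 5 windows it stood in those of Slc25a25, Slc25a4 and Slc25a38 and in neither that of Slc25a47 nor that of Slc25a15. The CCAAT box was found in 16 of 28 (57.1%), against 37.5% of all promoters, with 2 matches in the Slc25a4 window. The cAMP response element stood in 1 member window, that of Slc25a25 (3.57%, against 1.83% of all promoters), 158 bases before the start. The TATA box letters stood in 1 member window, that of Slc25a38 (3.57%, against 14.2%), 228 bases before the start. Such matches are descriptions of the letters and not sites.

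Values are log2 signals after a variance stabilizing normalization (vsn) fitted to the 17 arrays together. Of 22226 probes, 8004 to 9747 were above background on liver arrays and 7315 to 8237 on adipose arrays, where above background means a detection score over 0.99. The liver arrays were brighter, with a mean housekeeping control signal of 19470.3 to 38042.5, against 8639.7 to 16763.4 on adipose arrays, and no slide held both tissues, so tissue and slide cannot be told apart. Each of the 8 hepatocyte markers measured was above background on every liver array except Cps1 on GK liver replicate 2, and each of the 7 adipocyte markers on every adipose array except Lep on BN adipose replicate 1. GK liver replicate 2 went against its label. The summed log2 level of 9 kidney markers was 15.93 there, against 9.41 to 10.45 on the other 7 liver arrays, and that of 8 hepatocyte markers was 13.76, against 17.72 to 18.40. Liver results are given without this array first, which leaves 2 GK livers, and then with it. Muscle markers varied within adipose tissue, with summed levels of 9.05 to 15.79 in GK and 8.69 to 13.12 in BN rats, and GK adipose replicate 1 carried hepatocyte markers at 11.13, against 7.57 to 9.32 on the other adipose arrays. Whether the GK and BN samples of a group were processed as separate extractions is not given, so p-values measure the spread between these samples.

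Above background on all 16 arrays other than GK liver replicate 2 were 19 of the 33 members, 9 on some arrays and 5 on none, namely Slc25a2, Slc25a23, Slc25a26, Slc25a41 and Slc25a42. Slc25a47 and Slc25a21 were above background on all 8 liver arrays and on no adipose array. The members were compared between tissues first and between strains second. Differences come from limma, with Benjamini-Hochberg adjusted p over all 22226 probes and a threshold of 0.05, and an error is a standard error unless given as SD.

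In GK rats, 11 of 33 members were higher in liver than in adipose tissue, 4 were lower and 18 did not pass, where 16.6% of all probes were higher and 15.3% lower. In BN rats, 18 were higher, 5 lower and 10 did not pass, where 21.9% of all probes were higher and 19.4% lower. Many probes of the array are off in both tissues. Of probes detected throughout at least one tissue, 30.3% were higher and 25.8% lower in GK, and 38.5% were higher and 33.8% lower in BN. Of the members detected in that way, 9 of 25 were higher and 4 lower in GK, and 15 of 23 were higher and 3 lower in BN. The median difference of the members was 0.61 in GK and 0.73 in BN on the log2 scale, against 0.01 over all probes in each. The direction was shared by both strains for 10 members called higher in liver (Slc25a5, Slc25a15, Slc25a17, Slc25a20, Slc25a22, Slc25a25, Slc25a32, Slc25a38, Slc25a40 and Slc25a47) and 4 called lower (Slc25a4, Slc25a24, Slc25a35 and Slc25a52), and none was called in opposite directions. Called or not, 25 of the 33 genes had the same sign in both strains, and so did 14 of the 19 above background on all 16 arrays. Across the 33 genes the GK and BN differences had Pearson's r = 0.95, and r = 0.90 over the 32 genes without Slc25a47. Genes are not independent replicates, and the points share the probe and the normalization.

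**Figure D1:**
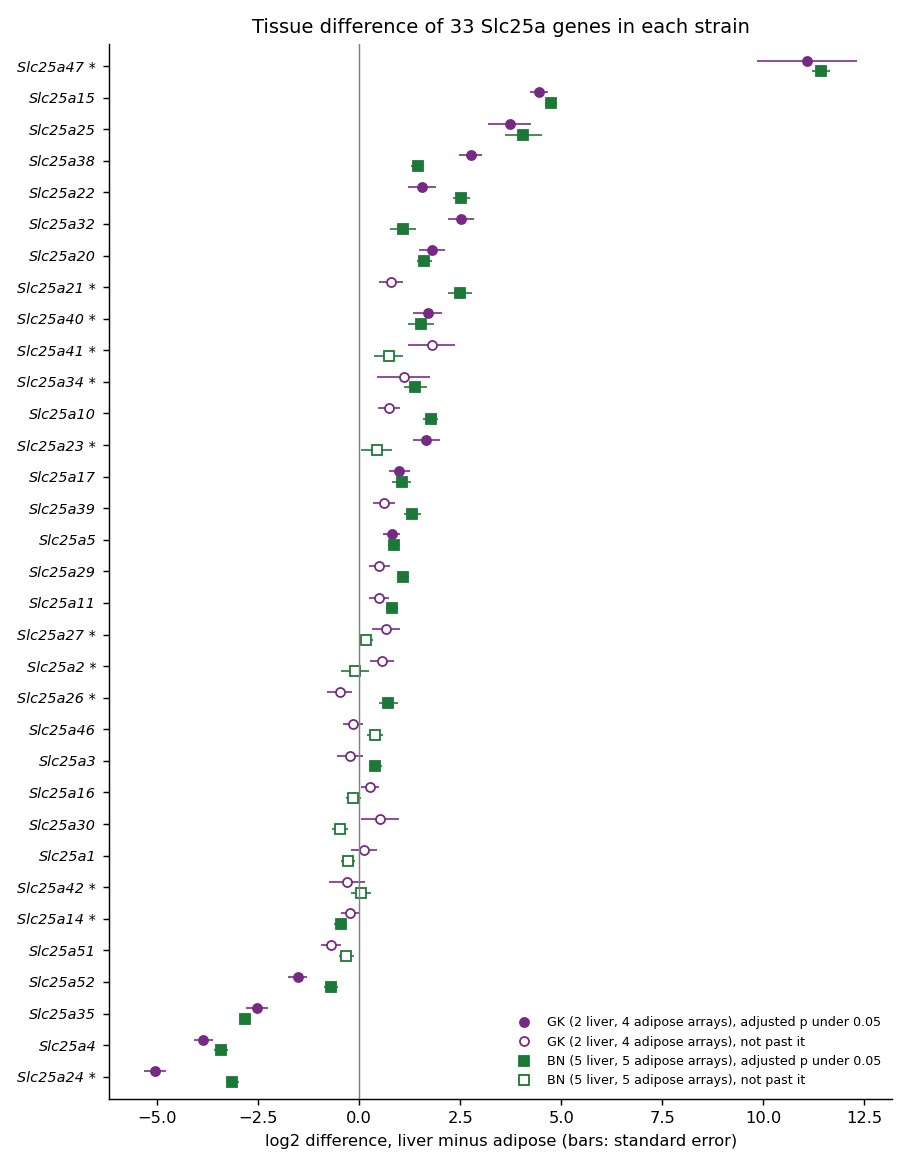
Log2 difference between liver and adipose tissue (x axis, liver minus adipose, bars give the standard error) for each of 33 Slc25a genes (y axis, ordered by the mean of both strains), in GK rats (circles, 2 livers without replicate 2 and 4 adipose samples) and BN rats (squares, 5 and 5). Filled symbols passed an adjusted p of 0.05, and an asterisk marks genes with no array above background in at least 1 of the 4 groups, whose position is not a measured size. Of the unmarked genes, Slc25a15 lies highest at 4.45 in GK and 4.75 in BN and Slc25a4 lowest at −3.86 and −3.43.

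The split of calls depended on the scaling. With neqc, 9 members were higher and 6 lower in GK (13.7% and 17.8% of all probes) and 14 higher and 9 lower in BN (17.8% and 24.7%). With quantile normalization, the counts were 11 and 6 in GK (16% and 21.6% of all probes) and 15 and 9 in BN (18.4% and 25.6%). Over all probes, 52% of calls in GK were towards liver with vsn, 43.5% with neqc and 42.6% with quantile normalization, and in BN the shares were 53%, 41.8% and 41.9%. With GK liver replicate 2 included, 10 members were higher and 1 lower in GK, where 13.3% of all probes were higher and 10.6% lower. With the rat as a fixed block, 5 members were higher and 3 lower in GK, where 8.91% of all probes were higher and 5.75% lower. That fit rests on the 2 GK rats that gave both tissues and leaves 1 residual degree of freedom. The 7 members that lost the GK call there were Slc25a5, Slc25a17, Slc25a20, Slc25a22, Slc25a23, Slc25a40 and Slc25a52.

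Slc25a47, a carrier that in mouse and human is made mainly by hepatocytes, had the largest tissue difference of the family. In GK rats its log2 signal was 13.19 and 14.40 in liver replicates 1 and 3, against 5.64, 2.64, 0.95 and 1.63 in adipose tissue. In BN rats it was 13.95, 13.09, 13.24, 13.38 and 13.17 in liver, against 2.46, 1.87, 1.56, 1.73 and 2.06 in adipose tissue. No adipose value was above background, and the highest of them, 5.64, belonged to GK adipose replicate 1, the array with hepatocyte markers. Liver was at least 338-fold higher in GK (adjusted p = 0.000635) and at least 261-fold higher in BN (adjusted p = 2.17e-11), each bound taken on the vsn scale against the lowest signals above background on the adipose arrays. These sizes depended on the scaling. The measured log2 difference was 5.97 in GK and 5.37 in BN with neqc, and 7.19 in GK and 6.75 in BN with quantile normalization, all smaller than the vsn bounds, and adjusted p passed under both. GK liver replicate 2 read 5.66, and with it the GK bound was at least 51.6-fold (adjusted p = 0.0229).

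Slc25a15, the ornithine carrier that links the matrix and cytosolic steps of the urea cycle, was measured in both tissues. In GK rats it was 13.03 and 13.10 in liver, against 8.65, 8.77, 8.47 and 8.56 in adipose tissue. The BN livers read 13.19, 13.24, 13.27, 13.34 and 13.59, against 8.49, 8.71, 8.74, 8.44 and 8.50 in BN adipose tissue. Every liver array lay far above every adipose array, and the replicates of a group stood close together. The difference was 4.45 ± 0.23 in GK (21.9-fold, adjusted p = 2.93e-05) and 4.75 ± 0.14 in BN (26.9-fold, adjusted p = 4.5e-10), and 3.74 and 3.87 with quantile normalization. The probe for Slc25a2, a second ornithine carrier, was not above background on any array.

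Slc25a25, an ATP-magnesium/phosphate carrier with calcium-binding motifs, was high in liver with a wide spread. In GK rats it was 12.75 and 11.00 in liver, against 8.42, 8.53, 7.50 and 8.15 in adipose tissue. BN liver gave 13.24, 11.81, 11.08, 11.13 and 13.16, against 8.26, 7.58, 7.69, 7.97 and 8.62 in BN adipose tissue. Within each strain some livers stood near 13 and others near 11, so the liver SD was 1.24 in GK (n = 2) and 1.06 in BN (n = 5), but no liver overlapped an adipose sample. Liver was higher by 3.72 ± 0.53 in GK (13.2-fold, adjusted p = 0.00201) and by 4.06 ± 0.46 in BN (16.6-fold, adjusted p = 2.1e-05), and with quantile normalization by 3.08 and 3.22. Its promoter was the one with the cAMP response element printed above.

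Of the paralogs that carry the same substrate, Slc25a24 showed the reverse pattern. It was above background in all 4 GK and in 3 of 5 BN adipose samples and in no liver. In GK rats it was 1.75 and 2.06 in liver, against 7.13, 7.14, 6.95 and 6.58 in adipose tissue. The BN values were 2.52, 2.86, 2.72, 2.49 and 2.75 in liver, against 5.70, 5.71, 6.07, 5.82 and 5.77 in adipose tissue. Liver was at least 4.04-fold lower in GK (adjusted p = 3.47e-05) and at least 1.69-fold lower in BN (adjusted p = 1.44e-08), again on the vsn scale. With neqc the log2 difference was −0.32 in GK and −0.12 in BN, and with quantile normalization −1.64 in GK and −0.87 in BN, so that its size is not settled while each of these fits kept the call. The probes of the other paralogs, Slc25a23 and Slc25a41, were not above background on any array, although Slc25a23 was called higher in GK liver (4.98 ± 0.62 in liver and 3.32 ± 0.22 in adipose tissue, SD, n = 2 and 4, adjusted p = 0.0082), a call lost with neqc (adjusted p = 0.0575).

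Slc25a4 and Slc25a5 encode the ADP/ATP carriers ANT1 and ANT2, which exchange cytosolic ADP for matrix ATP, and Slc25a4 is the form known from heart and skeletal muscle. Slc25a4 had the largest fall in liver of the members measured in both tissues. In GK rats it was 8.60 and 8.92 in liver, against 12.63, 12.67, 12.57 and 12.60 in adipose tissue. Among BN rats the values were 9.47, 9.26, 9.22, 9.25 and 8.79 in liver, against 12.50, 12.51, 12.57, 12.63 and 12.91 in adipose tissue. Muscle markers varied over the same adipose samples. GK adipose replicate 1, with a summed muscle marker level of 9.05, read 12.63 for Slc25a4, and GK adipose replicate 2, with 15.79, read 12.67. The part of muscle RNA in the adipose level was not tested. The difference was −3.86 ± 0.23 in GK (14.5-fold lower, adjusted p = 4.72e-05) and −3.43 ± 0.17 in BN (10.8-fold lower, adjusted p = 2.09e-08), and with neqc −4.58 in GK and −4.22 in BN. GK liver replicate 2 read 12.75, a level of adipose tissue, and with it the GK difference no longer passed (−2.53 ± 0.92, adjusted p = 0.0858).

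Slc25a5 differed little and its direction hung on the scaling. In GK rats it was 13.92 and 14.00 in liver, against 13.15, 13.11, 13.09 and 13.27 in adipose tissue. In BN rats it was 13.61, 14.15, 13.91, 13.96 and 14.01 in liver, against 13.07, 12.99, 13.02, 13.04 and 13.28 in adipose tissue. The vsn values did not overlap between tissues, and liver was higher by 0.80 ± 0.22 in GK (adjusted p = 0.0325) and 0.85 ± 0.15 in BN (adjusted p = 0.000692), but with neqc the differences were −0.02 (adjusted p = 0.9) and −0.05 (adjusted p = 0.535). The GK call was also lost with the rat as a block (adjusted p = 0.25) and on leaving out any 1 of the 6 arrays. RefSeq lists 9 pseudogenes of Slc25a5, 8 of Slc25a39, 2 of Slc25a3 and 1 each of Slc25a4, Slc25a15, Slc25a21 and Slc25a38, and a probe may read such copies.

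**Figure D2:**
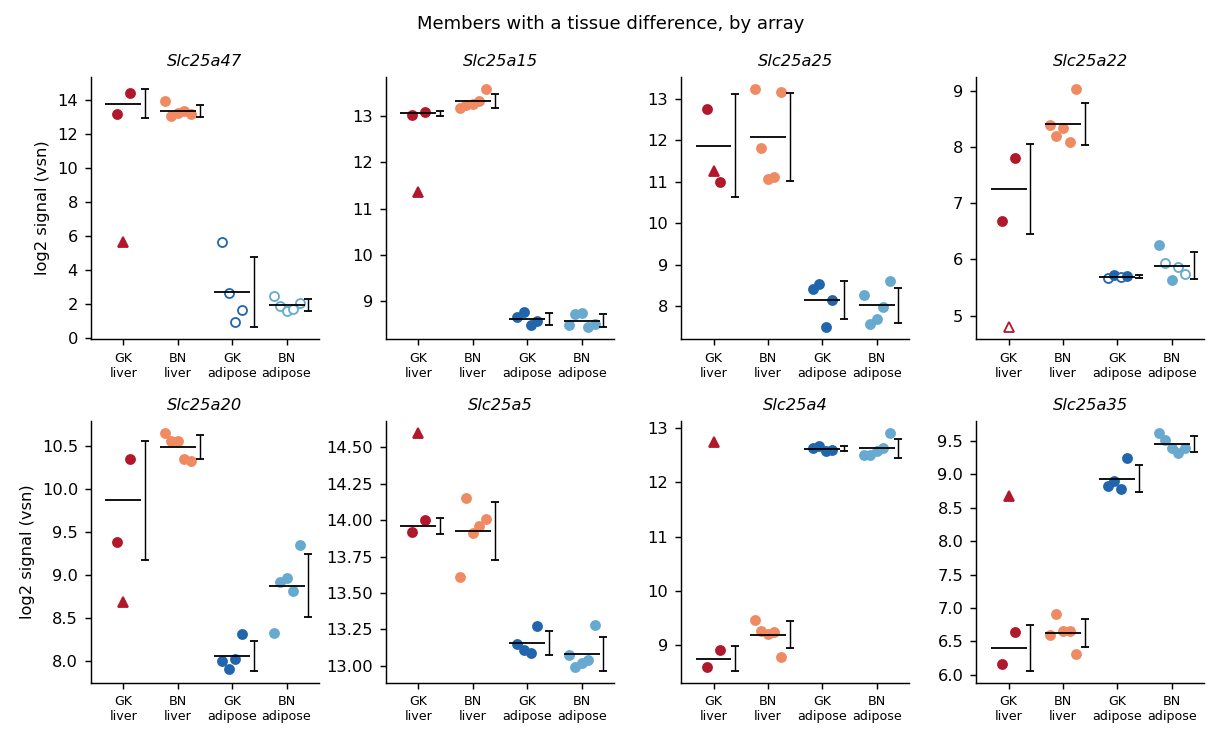
Log2 signal (y axis, vsn) on each array for 8 members, by group (x axis), with a line at the group mean and bars of 1 SD that leave out GK liver replicate 2 (triangles). Open symbols were not above background, and Slc25a4 in GK liver replicate 2 sits at 12.75 beside the adipose arrays rather than the other livers.

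Slc25a3, the phosphate carrier that supplies ATP synthase, was 12.10 and 13.05 in liver of GK rats, against 12.69, 12.69, 12.93 and 12.88 in adipose tissue. The BN livers read 12.81, 13.19, 13.25, 13.16 and 13.06, against 12.72, 12.61, 12.72, 12.52 and 12.91 in BN adipose tissue. The groups overlapped in both strains. The BN difference of 0.40 ± 0.15 passed narrowly (adjusted p = 0.0484), did not pass with the rat as a block (adjusted p = 0.119) or on leaving out 8 of the 10 arrays in turn, and turned to −0.47 with neqc and −0.45 with quantile normalization, and the GK difference was −0.22 ± 0.32 (adjusted p = 0.646). Slc25a1, the citrate carrier, was 11.67 and 12.54 in liver of GK rats, against 11.86, 11.84, 12.29 and 11.92 in adipose tissue. BN liver gave 11.61, 11.91, 11.79, 12.04 and 11.36, against 11.84, 12.09, 12.28, 11.70 and 12.20 in BN adipose tissue. Its tissues overlapped, with differences of 0.12 ± 0.32 in GK (adjusted p = 0.805) and −0.28 ± 0.18 in BN (adjusted p = 0.258).

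Slc25a20, the carnitine-acylcarnitine carrier of fatty acid oxidation, was 9.38 and 10.35 in liver of GK rats, against 8.0, 7.91, 8.02 and 8.31 in adipose tissue. The BN values were 10.65, 10.56, 10.55, 10.35 and 10.32 in liver, against 8.33, 8.92, 8.96, 8.81 and 9.35 in adipose tissue. Liver was higher without overlap in each strain, by 1.80 ± 0.33 in GK (3.49-fold, adjusted p = 0.00598) and 1.61 ± 0.19 in BN (3.06-fold, adjusted p = 3.53e-05). The GK call was lost with the rat as a block (adjusted p = 0.0613). Slc25a22, a glutamate carrier, was 6.68 and 7.81 in liver of GK rats, against 5.67, 5.73, 5.68 and 5.70 in adipose tissue. Among BN rats the values were 8.39, 8.20, 8.33, 8.09 and 9.03 in liver, against 6.26, 5.94, 5.63, 5.86 and 5.74 in adipose tissue. Each adipose group had 2 arrays above background, so the fold rests on dim values, and liver was higher by 1.55 ± 0.34 in GK (adjusted p = 0.0134) and 2.52 ± 0.21 in BN (adjusted p = 1.6e-06). With neqc these were 0.24 and 0.64, and the GK call was lost with the rat as a block (adjusted p = 0.111). GK liver replicate 2 read 4.80 for Slc25a22, below background, and with it the GK difference was 0.73 ± 0.63 (adjusted p = 0.44).

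Slc25a38, a carrier of glycine needed for haem synthesis, and Slc25a32, the carrier of folate and flavin cofactors, were higher in liver in both strains, and their adipose values also differed by strain. Slc25a38 was 8.90 and 9.64 in liver of GK rats, against 6.49, 6.39, 6.57 and 6.60 in adipose tissue. In BN rats it was 9.82, 10.34, 10.18, 10.35 and 9.81 in liver, against 8.63, 8.65, 8.56, 8.68 and 8.70 in adipose tissue. Liver was higher by 2.76 ± 0.28 in GK (6.76-fold, adjusted p = 0.000441) and 1.45 ± 0.16 in BN (2.74-fold, adjusted p = 1.75e-05), and with neqc by 1.20 in GK and 1.07 in BN. Slc25a32 was 7.81 and 7.54 in liver of GK rats, against 5.73, 4.86, 4.92 and 5.14 in adipose tissue. The BN livers read 8.38, 8.39, 8.46, 8.18 and 9.60, against 8.05, 6.93, 7.11, 7.45 and 8.07 in BN adipose tissue. Only GK adipose replicate 1 of the 4 GK adipose samples was above background for it. Liver was higher by 2.51 ± 0.32 in GK (adjusted p = 0.00119) and 1.08 ± 0.32 in BN (adjusted p = 0.0184), and with neqc by 0.39 in GK and 0.43 in BN (adjusted p = 0.0924 in BN).

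Slc25a35 and Slc25a52 were also lower in liver in both strains. Slc25a35, a carrier with no settled substrate, was 6.16 and 6.64 in liver of GK rats, against 8.83, 8.90, 8.78 and 9.24 in adipose tissue. BN liver gave 6.60, 6.91, 6.65, 6.65 and 6.31, against 9.62, 9.52, 9.39, 9.32 and 9.39 in BN adipose tissue. The tissues stood apart, with differences of −2.54 ± 0.27 in GK (5.81-fold lower, adjusted p = 0.000529) and −2.82 ± 0.15 in BN (7.07-fold lower, adjusted p = 4.86e-08), which were −1.15 in GK and −1.60 in BN with neqc. Slc25a52, whose human counterpart is related to the NAD carrier SLC25A51, was 5.77 and 6.10 in liver of GK rats, against 7.49, 7.53, 7.28 and 7.54 in adipose tissue. The BN values were 6.26, 6.25, 6.10, 6.79 and 6.65 in liver, against 7.14, 7.22, 7.14, 6.94 and 7.11 in adipose tissue. Liver was lower, with log2 differences of −1.53 ± 0.24 in GK (adjusted p = 0.00311) and −0.70 ± 0.17 in BN (adjusted p = 0.00572), and the differences were −0.32 and −0.16 with neqc. The GK call of Slc25a52 was lost with the rat as a block (adjusted p = 0.068). With GK liver replicate 2, neither gene passed in GK (adjusted p = 0.0572 for Slc25a35 and 0.318 for Slc25a52).

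Other carriers of dicarboxylates, glutathione and amino acids were higher in BN liver and did not pass in GK. Slc25a10, the dicarboxylate carrier, differed by 0.74 ± 0.28 in GK (adjusted p = 0.0847) and 1.77 ± 0.19 in BN (adjusted p = 1.3e-05). Slc25a11, the oxoglutarate carrier, differed by 0.49 ± 0.24 in GK (adjusted p = 0.159) and 0.81 ± 0.15 in BN (adjusted p = 0.000845). Slc25a39, a glutathione carrier, differed by 0.61 ± 0.27 in GK (adjusted p = 0.135) and 1.31 ± 0.21 in BN (adjusted p = 0.000303), and Slc25a29, a carrier of basic amino acids, by 0.50 ± 0.26 and 1.08 ± 0.15. With neqc the BN difference was 0.95 for Slc25a10 and 0.19 for Slc25a29. In GK rats no liver overlapped an adipose sample for any of these 4 genes. With 2 livers and 4 adipose samples such a gap can arise without a tissue difference, and its share over all probes was not counted. Slc25a17, the peroxisomal carrier of coenzyme A and adenine nucleotides, passed in both strains (0.99 ± 0.26 in GK, 1.05 ± 0.23 in BN, and 0.38 in each with neqc), and lost the GK call with the rat as a block (adjusted p = 0.187) and on leaving out 4 of the 6 arrays in turn. Slc25a40, called higher in liver in both strains, was above background on 1 of the 16 arrays, a GK liver, and its differences of 1.69 in GK and 1.52 in BN were 0.08 and 0.04 with neqc. In GK it lost the call with the rat as a block (adjusted p = 0.12).

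The 7 rats of the main fits with both tissues gave the tissue difference within the animal. Liver minus adipose was above 0 in 7 of 7 rats for Slc25a47 (10.55 to 12.77), Slc25a15 (4.26 to 5.09), Slc25a25 (2.84 to 4.98), Slc25a38 (1.11 to 3.04) and Slc25a20 (0.96 to 2.32). It was below 0 in 7 of 7 rats for Slc25a24 (−5.40 to −2.85), Slc25a4 (−4.12 to −3.03), Slc25a35 (−3.07 to −2.60) and Slc25a52 (−1.76 to −0.15). The ranges of Slc25a47 and Slc25a24 are not measured sizes, since Slc25a47 was above background on no adipose array and Slc25a24 on no liver array. For Slc25a1 liver minus adipose was above 0 in 2 of 7 rats (−0.85 to 0.62). The other genes named here had no overlap between liver and adipose arrays within either strain. Their sign was therefore the same in every rat by necessity, and these counts add no separate evidence. As these are bulk samples, fewer cells of a type and less RNA per cell cannot be told apart.

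The uncoupling protein relative Slc25a30, first described as a kidney mitochondrial carrier, had probes that disagreed. The probe with the highest mean was 7.85 and 6.12 in liver of GK rats, against 6.43, 6.50, 6.27 and 6.66 in adipose tissue, and differed by 0.52 ± 0.47 in GK and −0.48 ± 0.20 in BN, both without passing. A second probe, above background in every liver and no adipose sample, was at least 5.22-fold higher in GK liver and at least 3.29-fold higher in BN liver (adjusted p = 5.33e-06 in BN). The third was above background on 1 array of 17. The tissue preference of Slc25a30 therefore has no single answer on this array. Slc25a14 and Slc25a27, brain-type uncoupling protein relatives, were near background, and Slc25a14 was the member called lower in BN liver alone (−0.46 ± 0.16, adjusted p = 0.044), with no BN liver above background. This call was lost with the rat as a block (adjusted p = 0.0878), with trended and robust variance, and on leaving out 8 of the 10 arrays in turn.

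Between strains fewer members passed than between tissues. In adipose tissue 1 of 33 members was higher in GK, 2 were lower and 30 did not pass, where 1.03% of all probes were higher and 1.62% lower. More members and more probes passed with neqc, quantile normalization, the deposited values and vsn for that tissue alone, as counted below. Slc25a38 fell in GK adipose tissue, where the 4 values were 6.49, 6.39, 6.57 and 6.60, against 8.63, 8.65, 8.56, 8.68 and 8.70 in BN adipose tissue. The gap was far wider than the spread within either strain (SD 0.10 and 0.05). The difference was −2.13 ± 0.13 (4.39-fold lower, adjusted p = 1.74e-05), and where a slide carried an array of each strain, 3 times in all, it was −2.15, −2.07 and −1.96. Summed levels of 3 erythroid markers overlapped between GK (15.14 to 15.46) and BN adipose tissue (14.96 to 15.30). Hbb alone made up nearly all of this sum, and Slc4a1 was above background on no adipose array. The part of erythroid RNA in the Slc25a38 level was not tested.

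Slc25a32 was lower in GK adipose tissue without overlap, at 5.73, 4.86, 4.92 and 5.14 against 8.05, 6.93, 7.11, 7.45 and 8.07 in BN adipose tissue. The difference was −2.36 ± 0.30 (adjusted p = 0.00217), and −2.32, −2.01 and −1.97 on the 3 slides. Slc25a24 was higher in GK adipose tissue, at 7.13, 7.14, 6.95 and 6.58 against 5.70, 5.71, 6.07, 5.82 and 5.77 in BN adipose tissue. The difference was 1.14 ± 0.17 (2.2-fold, adjusted p = 0.00646), and 1.43, 1.24 and 0.51 on the 3 slides. These sizes depended on how low signals were scaled, since with neqc they were −0.85 for Slc25a38, −0.41 for Slc25a32 and 0.18 for Slc25a24, all past the threshold. With the slide as a fixed block, which leaves few residual degrees of freedom, none passed (adjusted p = 0.0737, 0.0817 and 0.293).

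**Figure D3:**
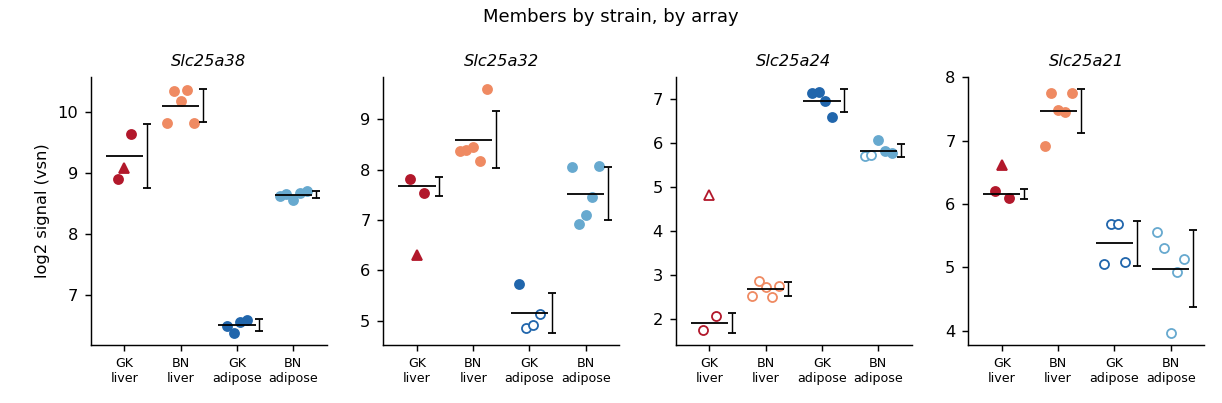
Log2 signal (y axis, vsn) on each array for the 3 members called between strains in adipose tissue and for Slc25a21, by group (x axis), with a line at the group mean and bars of 1 SD that leave out GK liver replicate 2 (triangles). Open symbols were not above background, and the 4 GK adipose samples sit between 6.39 and 6.60 for Slc25a38, all below the BN adipose samples.

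Of the other members in adipose tissue, Slc25a20 came nearest to the threshold, at 8.06 ± 0.18 in GK and 8.87 ± 0.37 in BN (SD, n = 4 and 5, −0.81 ± 0.21, adjusted p = 0.091). Slc25a30 (−0.72 ± 0.22, adjusted p = 0.148) and Slc25a35 (−0.51 ± 0.15, adjusted p = 0.144) followed. Neither ADP/ATP carrier passed, with Slc25a4 at 12.61 ± 0.04 in GK and 12.63 ± 0.17 in BN and Slc25a5 at 13.15 ± 0.08 and 13.08 ± 0.12. The median size of the strain difference in adipose tissue, sign left aside, was 0.19 over the members and 0.26 over all probes. Over probes detected throughout at least 1 strain it was 0.22. In liver without GK liver replicate 2 it was 0.52 over the members, 0.37 over all probes and 0.28 over probes detected in that way.

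In liver no member passed in limma between strains, with or without GK liver replicate 2. An unadjusted p under 0.05 was reached by 8 of 33 members and 2882 of 22226 probes without that array. With it, the counts were 9 members and 2658 probes. Past the adjusted threshold, 0.522% of all probes were higher and 0.688% lower in GK, and 0.274% and 0.405% with that array. The comparison without it rests on 2 GK livers. The smallest p belonged to Slc25a21, the oxoadipate carrier of lysine breakdown, at 6.21 and 6.10 in GK liver, against 6.91, 7.75, 7.49, 7.45 and 7.75 in BN liver. The strains did not overlap, and GK liver replicate 2 read 6.61, also below the BN range. The difference was −1.31 ± 0.29 (adjusted p = 0.0909), −1.16 ± 0.28 with that array (adjusted p = 0.152), and −1.39 on the slide shared by GK liver replicate 3 and a BN liver. Of 17 alternatives, which include leaving out each array, 12 did not pass for Slc25a21 and 5 did. The difference over them ranged from −1.45 to −0.24. Among those that passed were quantile normalization (−0.75, adjusted p = 0.00662) and trended and robust variance (adjusted p = 0.00242). Detected probes alone (adjusted p = 0.00531) and the deposited values (−1.23, adjusted p = 0.0352) also passed. Slc25a26, the carrier of S-adenosylmethionine, was second at 4.27 and 3.91 in GK liver, against 5.31, 5.08, 5.18, 5.43 and 4.69 in BN liver, all below background (−1.05 ± 0.27, adjusted p = 0.151).

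Whether the strains differed to another extent in liver than in adipose tissue was tested as an interaction over 16 arrays, liver on top. It was higher for 1 member and lower for 1, and 31 did not pass, where 0.936% of all probes were higher and 0.922% lower. Slc25a24 had an interaction of −1.90 ± 0.26 (adjusted p = 0.00098), and its liver values in both strains were below background. With GK liver replicate 2, which read 4.81 against 1.75 to 2.86 in the other livers, it was −0.93 (adjusted p = 0.568). Slc25a38 had an interaction of 1.30 ± 0.28 (adjusted p = 0.0244), with a strain difference of −0.83 ± 0.30 in liver (adjusted p = 0.307) and −2.13 ± 0.13 in adipose tissue. It was 1.24 with GK liver replicate 2 (adjusted p = 0.0381, where 0.549% of all probes were higher and 0.495% lower). With neqc, the Slc25a38 interaction was 0.13 (adjusted p = 0.768). Slc25a21 was next at −1.72 ± 0.46 (adjusted p = 0.0788).

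GK liver replicate 2 lay outside the range of the other 7 liver arrays for 21 of 33 members, above it for 14 and below it for 7, where 45% of all probes lay outside. Each other liver array was set against its own 7 fellows, which include GK liver replicate 2. That count was 16 for GK liver replicate 1 and 2 to 8 for the others. Because replicate 2 can widen the range there, these counts are not directly comparable with the 21. Their shares over all probes were not counted. Slc25a4 was 12.75 on GK liver replicate 2, against 8.60 to 9.47 on the others, and Slc25a35 was 8.68 against 6.16 to 6.91. Slc25a30 was 8.70 against 6.12 to 7.85, Slc25a51, a carrier of NAD, 9.24 against 7.44 to 8.14, and Slc25a52 8.09 against 5.77 to 6.79. Below the range were Slc25a47 (5.66 against 13.09 to 14.40), Slc25a22 (4.80 against 6.68 to 9.03), Slc25a15 (11.35 against 13.03 to 13.59) and Slc25a20 (8.69 against 9.38 to 10.65). Of the 14 members above the range, 7 were called higher in BN liver than in BN adipose tissue (Slc25a3, Slc25a5, Slc25a11, Slc25a17, Slc25a29, Slc25a34 and Slc25a40), 5 were called lower and 2 were not called. Of the 7 below it, 5 were called higher in BN liver and 2 were not called. Over all 33 members, 18 were called higher and 5 lower in BN liver, where 21.9% and 19.4% of all probes were. On GK liver replicate 2 the adipocyte markers summed to 10.43, against 11.29 to 11.98 on the other livers. The markers of this list went both ways. Cfd was 6.89 against 10.58 to 11.53, and Cidec 8.78 against 8.79 to 9.71. Fabp4 was 9.26 against 5.29 to 6.87, and Adipoq 5.90 against 3.70 to 4.68, above background on this liver array alone. Lep, Retn and Lipe lay within the range of the other livers.

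**Figure D4:**
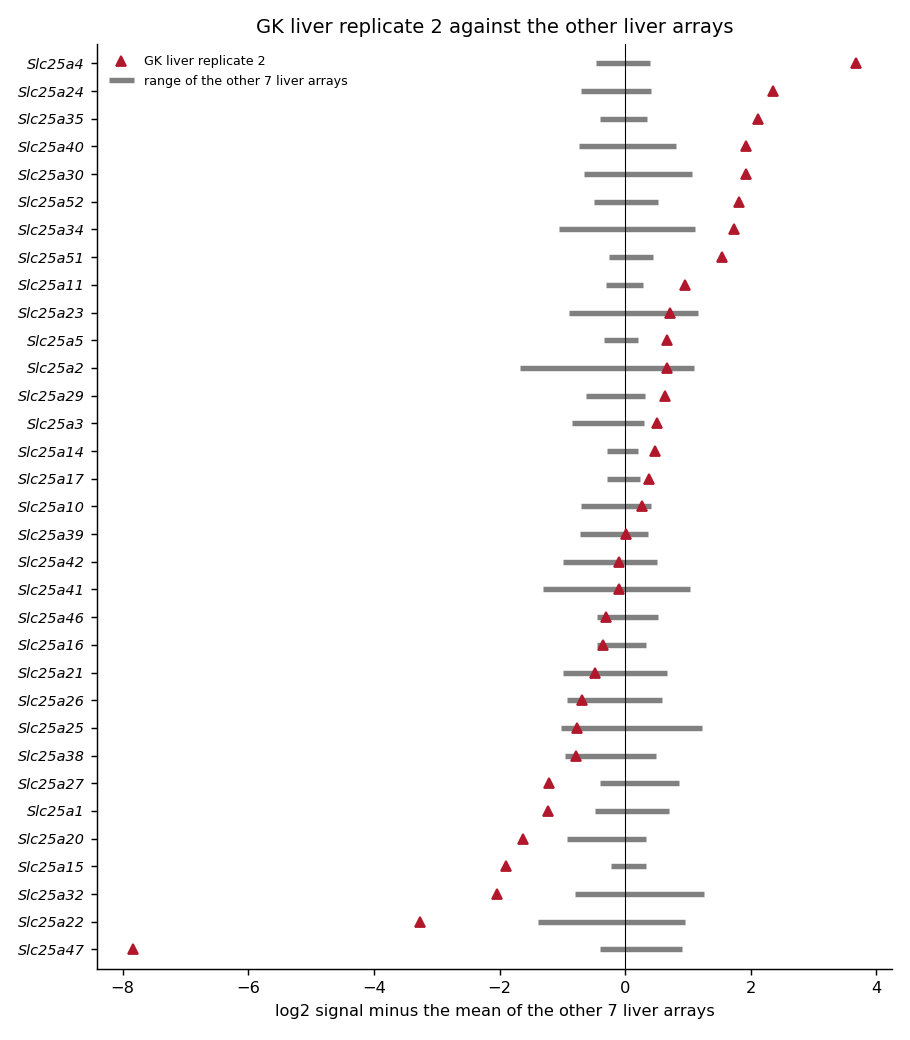
Log2 signal of GK liver replicate 2 (triangles) minus the mean of the other 7 liver arrays (x axis) for each of 33 members (y axis), with grey bars for the range of those 7 arrays. The triangles run from −7.83 for Slc25a47 to 3.68 for Slc25a4, and 12 lie within the bars.

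Genes around the carriers were read beside them. For the counts of these lists, the shares of all probes were 16.6% higher and 15.3% lower in GK liver. In BN liver they were 21.9% and 19.4%. The enzymes named in this paragraph were all higher in liver. Of 22 enzymes that use what the carriers deliver, 14 were higher in liver in GK and 1 lower, and 14 were higher and 3 lower in BN, with median differences of 2.11 in GK and 1.30 in BN. Otc, the matrix enzyme that takes the ornithine brought in by Slc25a15, was 13.30 in liver and 3.46 in adipose tissue of GK rats and 13.52 and 2.92 in BN rats, with no adipose value above background. Cps1, the first enzyme of the urea cycle, was likewise above background in liver alone. Got2, the mitochondrial aspartate aminotransferase, differed by 3.16 in GK and 3.09 in BN, and Cpt1a, which makes the acylcarnitines that Slc25a20 carries, by 3.91 and 4.07. Adjusted p was under 0.05 for each of these in both strains.

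Of 10 genes that import carriers into the inner membrane, 5 were higher in GK liver and 8 in BN liver, and none was lower (medians 0.85 and 0.96). Tomm20, a receptor of the outer membrane, differed by 1.46 in GK and 1.48 in BN. Timm9, a chaperone of the intermembrane space, was above background in every liver of the main fits and in no adipose sample (7.94 and 2.54 in GK, 7.19 and 3.52 in BN). Of 12 genes of oxidative phosphorylation and other mitochondrial housekeeping, 2 were higher and 1 lower in GK liver, and 4 were higher and 1 lower in BN liver (medians 0.34 and 0.40). Hspd1, the matrix chaperonin, rose in liver in both strains (1.04 and 1.52), Cs, citrate synthase, fell (−3.03 and −1.90), and Cox4i1, a subunit of cytochrome oxidase, read −0.02 in GK (adjusted p = 0.951) and 0.03 in BN (adjusted p = 0.881).

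Of 9 other transporters of mitochondrial membranes, 3 were higher and 1 lower in GK liver, and 4 were higher and 1 lower in BN liver (medians −0.08 and 0.12). The pyruvate carrier subunits rose in liver, Mpc1 by 5.02 in GK and 4.53 in BN and Mpc2 by 2.34 and 1.67. Of 5 genes of the carrier family that bear other symbols, none was higher and 1 lower in GK liver, and 1 was higher and 3 lower in BN liver (medians −1.33 and −0.70). Ucp3, an uncoupling protein known from muscle and brown fat, was lower in liver, with differences of −3.24 in GK and −3.15 in BN, with no liver value above background. Ucp1, the uncoupling protein of brown fat, was above background in 2 of 4 GK and 3 of 5 BN adipose samples and in no liver, with −1.94 in GK (adjusted p = 0.244) and −4.35 in BN (adjusted p = 0.0357). Between strains, 1 gene of these 5 lists passed in adipose tissue, the serine carrier Sfxn1 (−1.03, adjusted p = 0.0044), and 1 in liver without GK liver replicate 2, Got1 (−1.24, adjusted p = 0.0426).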

How the data were processed

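Adipose tissue and liver RNA of GK and BN rats was hybridised to 17 Illumina arrays on 12 slides, and the rat label paired both tissues of 5 BN rats and of 3 GK rats. The deposited intensity values are probe signals averaged over beads by the authors' scanner software, without normalization. The deposited detection score rates each probe against the negative control probes of its array. The authors' own log2 values came from vsn run on each tissue by itself, so they served as an alternative within a tissue.

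Here the mean of the negative controls was taken off every intensity and all arrays entered 1 vsn model (least trimmed squares quantile 0.9, 7 iterations, 5 slices), written in Python 3.11.15 with numpy 2.4.6, and checked on simulated data. Run on 1 tissue at a time, its values lay within 0.117 of the deposited log2 values (median 0.0208). Groups were compared with limma 3.58.1 in R 4.3.3 (statmod 1.5.0 for random blocks), with Benjamini-Hochberg adjustment over 22226 probes. The interaction used the rat as a random block. The tissue fits were made without a rat block and repeated with the rat as a fixed block. The fixed block left 1 residual degree of freedom in GK and 4 in BN. Deviations of liver and adipose arrays of 1 rat correlated at −0.27 to 0.25 in BN (5 rats) and 0.21 in GK (2 rats). A probe below background on every array of a group has a fold given as a bound against the lowest signals above background.

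Every member may be named. Values per array are given for the 6 members with the largest mean tissue difference in each direction that passed in both strains and were detected throughout the higher tissue, for members past the threshold between strains or in the interaction (else those with the smallest p), and for Slc25a1, Slc25a3, Slc25a4, Slc25a5, Slc25a15 and Slc25a20. At most 4 genes of each other list are named. The members and lists were chosen with earlier results of these data known. Symbols came from the platform's annotation (13650 of 22226 probes) and promoters from RefSeq (GRCr8). The lists cover carriers under other symbols, other mitochondrial transporters, carrier import, partner enzymes, mitochondrial content, and markers of hepatocytes, adipocytes, kidney, skeletal muscle, brown adipocytes, erythroid cells, macrophages and T cells. Alternatives were neqc, quantile normalization, detected probes alone, trended and robust variance, the deposited values, vsn for 1 tissue, slide and replicate blocks, 1 fit to all groups, other probes of a gene and leaving out each array.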

Additional observations from a re-analysis of the deposited data

Results flagged for a closer look

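Among 99 groups of 4 or 5 arrays checked over the members, 2 held an array far from the others, and chance flags about 1 group in 20. Slc25a32 was 9.60 in BN liver replicate 5, against 8.18 to 8.46 in the other BN livers. Slc25a5 was 13.28 in BN adipose replicate 5, against 12.99 to 13.07 in the other BN adipose samples.

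The interaction of strain and tissue passed the threshold for 2 members. The strain difference was lower in liver than in adipose tissue by −1.90 for Slc25a24, with liver values below background and the call lost with GK liver replicate 2. It was higher in liver than in adipose tissue by 1.30 for Slc25a38. For this gene the GK mean was below the BN mean in both tissues, but the liver difference did not pass (limma, adjusted p = 0.307). The Slc25a38 interaction was lost with neqc (0.13, adjusted p = 0.768). It was also lost without GK adipose replicate 2 and without GK liver replicate 3.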

How the results depend on the processing

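The limits are the 2 GK livers of the main liver fits, the dim probes, and the slides, which separate the tissues. GK and BN replicates share only a number. Same-numbered arrays did not deviate together (correlations −0.18 to 0.06 in adipose tissue and −0.21 to 0.12 in liver), no array correlated best with its own number, and the replicate block left 184 probes of 588 in adipose tissue and 0 of 269 in liver (1650 at an unadjusted p under 0.05). The rat as a replicate block left 8 members of 15 and 3258 probes of 7087 in the GK tissue comparison and changed no other count of calls by over 1.5 times. Why counts moved was not tested. In the strain comparison of adipose tissue (3 members and 588 probes) the counts were 5 and 1023 with neqc, 8 and 1488 with quantile normalization, 6 and 1186 with detected probes, 6 and 1171 with trended and robust variance, 5 and 1100 with the deposited values, 5 and 1075 with vsn for that tissue, and 0 and 17 with the slide as a fixed block. In liver (0 and 269) they were, in the same order of the first 6, 1 and 480, 3 and 1041, 2 and 791, 3 and 878, 1 and 525, and 1 and 504, with 1 and 735 in 1 fit to all groups and 151 probes with GK liver replicate 2. The interaction (2 and 413) gave 4 and 1009 with neqc, 5 and 1045 with quantile normalization, 5 and 653 with detected probes, 4 members with trended and robust variance, and 1 and 232 with GK liver replicate 2. The 3 members called in adipose tissue were among those called under each of the alternatives other than the slide as a fixed block and, for Slc25a24, the replicate block.

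Leaving out 1 array gave 13 to 16 members and 5673 to 7471 probes for tissue in GK, 20 to 23 and 8499 to 9028 for tissue in BN, 3 to 4 and 369 to 505 for strain in adipose tissue, 0 and 77 to 829 for strain in liver, and 1 to 5 and 189 to 1227 for the interaction. Without GK liver replicate 3 the strain comparison in liver called 829 probes and the interaction 1227 probes and 5 members, without GK liver replicate 1 the liver comparison called 77 and the interaction 189, and without BN liver replicates 2, 3, 4 and 5 in turn the liver comparison called 160, 128, 141 and 148. In adipose tissue the strain comparison called 376 probes without GK adipose replicate 1 and 369 without GK adipose replicate 2. A lone GK liver was then assumed to vary like the other groups. The Slc25a38 interaction was lost without GK adipose replicate 2 (1.26, adjusted p = 0.06) and without GK liver replicate 3 (0.93, adjusted p = 0.0771).

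Directions turned for Slc25a3 in BN (−0.47 with neqc, −0.45 with quantile normalization) and for Slc25a5 in BN (−0.05 with each) and GK (−0.02 with each). For Slc25a30 the other probes gave 2.83 and 0.66 in BN tissue and one gave 0.27 for strain in adipose tissue. The slide as a random block could not be estimated for tissue, where each slide held 1 array of a fit, nor for strain in liver without GK liver replicate 2, where the fixed block left no residual degrees of freedom.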

Other observations

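Marker genes of cell types were read beside the members. Of all probes, 16.6% were higher and 15.3% lower in liver than in adipose tissue in GK, and 21.9% and 19.4% in BN. Between tissues, 8 of 8 hepatocyte markers were higher and 7 of 7 adipocyte markers lower in liver in both strains, with median differences of 10.03 in GK and 11.44 in BN and of −6.07 and −5.17. Of 9 skeletal muscle markers, 1 was lower in GK liver and 7 in BN liver, of 9 kidney markers 2 were higher in each strain, and of 5 brown adipocyte markers 1 was lower in GK liver, while 1 was higher and 2 were lower in BN liver. Of 3 erythroid markers, 1 was higher in GK and 2 in BN liver, of 2 macrophage markers 2 and 1, and of 4 T cell markers 1 was lower in each strain. Between strains in adipose tissue, 1 hepatocyte marker (Hpd, −2.0) and 1 adipocyte marker (Retn, −1.52) were lower in GK, and no marker of the other lists passed. In liver no marker passed between strains, with or without GK liver replicate 2.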
